A study of Mus musculus with 8 samples.

Results

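Endothelial cells line the blood vessels of the pituitary, and 10 genes that mark them were followed here by name: Pecam1, Cdh5, Kdr, Flt1, Tek, Tie1, Emcn, Plvap, Eng and Cldn5. These are 10 of the 48526 genes of the count table, and all 10 passed the limit of a mean normalized count above 20, as did 15580 genes in all. The tissue was the neuro-intermediate lobe, dissected from C57B6 mice and pooled by 5 lobes per library, with 2 libraries in each of 4 groups. WT mice carried no transgene, ACreb3l2 and AXBP1 mice carried 1 transgene each, and ACreb3l2/AXBP1 mice carried both. Each transgene encodes a dominant negative (AZIP) protein that binds its target factor, Creb3l2 or XBP1, and keeps it from DNA. Both were driven by the rat POMC promoter, which the paper describes as specific for the hormone-making melanotropes. Endothelium was thus not the intended target of the transgenes, and whether it expressed them was not tested. Per the study's methods the animals were 3 months old males, and results were shown for 1 of the lines made with each transgene. The labels name melanotropes as the cell type, yet the lobe also holds vessels, the glia of the posterior lobe (pituicytes), nerve endings and other cells.

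Capillaries of the posterior lobe are known to be fenestrated, with thin pores closed by a diaphragm, so that hormones pass into blood without the barrier found in brain. Vascular endothelial growth factor (VEGF) made by neighbouring cells acts through the receptors Kdr and Flt1 and keeps such capillaries fenestrated. A parallel pathway runs from the angiopoietins to the receptor Tek, with Tie1 as its partner, and endoglin (Eng) carries signals of the BMP and TGF-beta family. Junctions between the cells are built with VE-cadherin (Cdh5), Pecam1 and claudin 5 (Cldn5).

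The libraries held from 28256086 to 37988912 counts. The 10 genes together took from 162 to 374 CPM (counts scaled to a common library depth), and Pomc, the hormone gene of melanotropes, took from 6.91% to 14.6% of all counts. As these are bulk libraries, fewer cells of a type and less RNA per cell cannot be told apart. The labels give no batch, and nothing in them says whether the pools of a group were dissected on separate days, so p-values measure the spread between pools. No permutation test of a single value between 2 libraries and 2 can reach 0.05, and the tests below are those of edgeR's quasi-likelihood model fitted across all genes, with Benjamini-Hochberg adjustment.

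The promoters of 3 of the genes are shown as examples. Among them is Cldn5, which followed the other genes least from library to library, on only 29 to 87 counts. Each sequence is the 250 bases before the RefSeq transcript start on the gene's own strand (build GRCm38.p6), and capitals mark GGAA or its reverse complement TTCC, the core letters bound by ETS factors, a family known for its role in endothelial genes. The GENCODE model of Tie1 starts further upstream than the RefSeq transcript, so most of the Tie1 window lies within the gene range given below, as do the last bases of the Kdr window. RefSeq windows were at hand for 7 of the 10 genes, and not for Pecam1, Cdh5 and Plvap.
Tie1 (chr4:118489850-118490099, minus strand): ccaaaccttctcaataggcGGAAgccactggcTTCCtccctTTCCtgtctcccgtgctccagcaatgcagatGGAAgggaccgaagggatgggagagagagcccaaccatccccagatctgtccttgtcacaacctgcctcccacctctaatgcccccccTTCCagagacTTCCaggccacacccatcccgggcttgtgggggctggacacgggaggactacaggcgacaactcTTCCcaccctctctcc
Kdr (chr5:75978456-75978705, minus strand): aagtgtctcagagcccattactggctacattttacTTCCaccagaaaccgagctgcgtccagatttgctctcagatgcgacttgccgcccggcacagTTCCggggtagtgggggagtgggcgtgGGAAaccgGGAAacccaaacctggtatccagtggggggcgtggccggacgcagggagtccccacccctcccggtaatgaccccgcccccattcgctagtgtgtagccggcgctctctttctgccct
Cldn5 (chr16:18776597-18776846, plus strand): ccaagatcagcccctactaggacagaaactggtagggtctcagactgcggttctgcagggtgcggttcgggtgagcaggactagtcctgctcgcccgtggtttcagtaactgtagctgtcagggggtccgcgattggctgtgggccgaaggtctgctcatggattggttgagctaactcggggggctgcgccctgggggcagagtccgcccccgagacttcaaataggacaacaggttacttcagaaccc
The ETS letters were found 7 times in the Tie1 window, 4 times in those of Kdr, Flt1 and Emcn, 3 times in that of Eng, 2 times in that of Tek and 0 times in that of Cldn5. They are common letters, present in 93.4% of 32851 windows of this length with a median of 3 per window. ACGT, the core of many bZIP sites and its own reverse complement, was found once, in the Flt1 window, against 26.9% of all windows. The GC box GGGCGG, searched on both strands, was present in the windows of Kdr, Flt1 and Cldn5 and in 32.7% of all windows. TATAAA was present on either strand in the Flt1 window and in 12.4% of all windows. None of these motifs contains another, and a match describes letters and not a bound site. Whether these letters relate to how the genes moved over the libraries was not tested.

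Per length of transcript the fenestral gene led in every library. Plvap, which forms the diaphragm of fenestrae, had from 10.6 to 23.2 FPKM (fragments per kilobase of gene, scaled to library depth, the authors' estimate of a level) with a median of 18.6. Emcn, a sialomucin of capillary and venous endothelium, came next in each of the 8 libraries, with 6.91 to 18.4 FPKM. Pecam1, Kdr, Eng and Flt1 followed with medians of 7.76, 7.31, 6.03 and 5.76 FPKM, within ranks 3 to 6. Flt1 lay below both Kdr and Pecam1 in all 8 libraries, while Kdr and Pecam1 changed places with each other, as Eng did with each of the other genes, so those parts of the order were not resolved. Cdh5 and Tie1 shared ranks 7 and 8, with medians of 3.36 and 3.28 FPKM. Tek was ninth in every library with 1.51 to 4.02 FPKM. Cldn5 was last in every library with 0.627 to 1.61 FPKM, which rested on only 29 to 87 counts, so its single values carry wide counting intervals. The ratio of Cldn5 to Plvap was 0.0388 to 0.0696 in 7 libraries and 0.121 in the eighth, ACreb3l2 replicate 2. The transporter Slco1c1, a marker of brain capillaries that have a barrier, had 1 to 10 counts per library and was too low to test. Mfsd2a, another barrier marker, was measured at 4.12 to 7.54 FPKM.

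**Figure D1:**
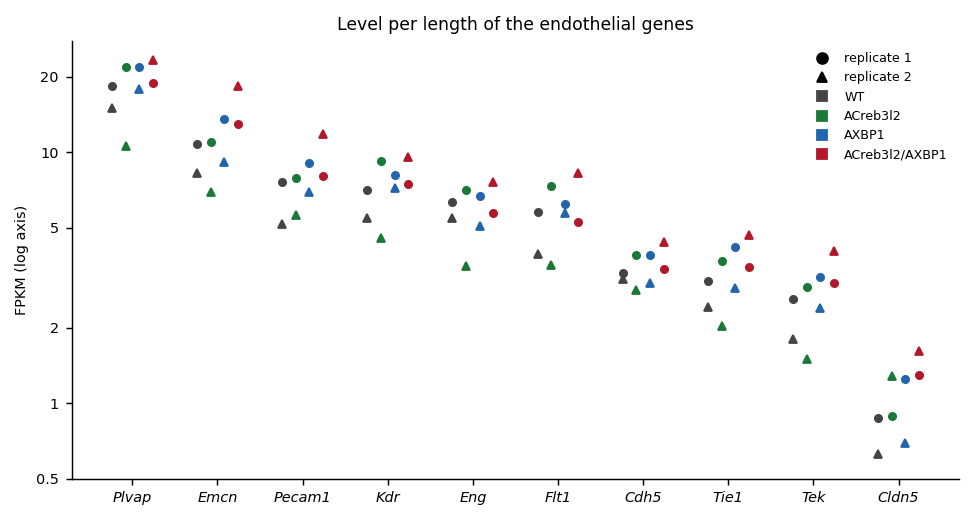
FPKM of the 10 endothelial genes on a log axis, with 1 point per library (colour for the group, circle for replicate 1, triangle for replicate 2) and genes in order of their median. Plvap and Emcn lie first and second in each library, and Cldn5 lies last at 0.627 to 1.61 FPKM.

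The junction and adhesion genes are given first. Pecam1 (ENSMUSG00000020717, chr11:106654217-106750628, mm10), an adhesion molecule at endothelial junctions, had normalized counts of 873 and 669.8 in WT, 904.3 and 604.6 with ACreb3l2, 1190 and 862.5 with AXBP1 and 994.5 and 1274 with both transgenes (replicates 1 and 2 in each case). Both ACreb3l2/AXBP1 libraries lay above both WT libraries, while AXBP1 replicate 2 lay just below WT replicate 1. Cdh5 (ENSMUSG00000031871, chr8:104101625-104144511), the cadherin of endothelial junctions, had 495.7 and 461.8 normalized counts in WT, 570.3 and 411.8 with ACreb3l2, 669.2 and 507.3 with AXBP1 and 556 and 640.9 with both transgenes. Its range over the 8 libraries was the narrowest of the 10 genes, 1.63-fold from lowest to highest. The antisense gene Gm29682 overlaps Cdh5, and reads of the pair can be told apart only if strand was used in counting. Per the methods the library kit preserves strand, but the sources used here do not state the counting setting. Cldn5 (ENSMUSG00000041378, chr16:18776847-18778262), the main claudin of endothelial tight junctions, had 43.65 and 31.58 normalized counts in WT, 42.08 and 63.88 with ACreb3l2, 70.08 and 38.05 with AXBP1 and 68.14 and 77.12 with both transgenes. Both libraries with the 2 transgenes lay above both WT libraries. Within ACreb3l2, Cldn5 was the 1 gene of the 10 that was higher in replicate 2, on 56 counts (exact 95% Poisson interval 42.3 to 72.7) against 49 counts (36.3 to 64.8), intervals that overlap and cover counting error only.

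The VEGF receptors had more reads. Kdr (ENSMUSG00000062960, chr5:75932827-75978458), the main signalling receptor for VEGF, had normalized counts of 1632 and 1301 in WT, 2069 and 1073 with ACreb3l2, 2143 and 1866 with AXBP1 and 1851 and 2186 with both transgenes. Flt1 (ENSMUSG00000029648, chr5:147561604-147726011), which binds VEGF tightly and also has a soluble form that acts as a decoy, had 1308 and 995.5 in WT, 1850 and 872.7 with ACreb3l2, 1732 and 1504 with AXBP1 and 1466 and 2111 with both transgenes. For both receptors the AXBP1 and ACreb3l2/AXBP1 libraries all lay above both WT libraries, and the ACreb3l2 libraries lay on either side of them. The ratio of Flt1 to Kdr in FPKM stayed between 0.708 and 0.866 in the 8 libraries.

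The angiopoietin receptors showed the same order. Tek (ENSMUSG00000006386, chr4:94739289-94874976), the receptor for angiopoietins, had normalized counts of 424.9 and 303.9 in WT, 462.9 and 264.7 with ACreb3l2, 601.1 and 441.6 with AXBP1 and 542.2 and 673.7 with both transgenes. Tie1 (ENSMUSG00000033191, chr4:118471191-118490061), the receptor that modulates Tek, had 488.9 and 394.3 in WT, 572 and 329.7 with ACreb3l2, 768.9 and 513.1 with AXBP1 and 589.6 and 729.5 with both transgenes. Groups did not overlap between WT and AXBP1, or between WT and ACreb3l2/AXBP1, for either gene. Tie1 exceeded Tek in each library, by a ratio of 1.16 to 1.34 in FPKM.

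The capillary surface genes and endoglin complete the set. Emcn (ENSMUSG00000054690, chr3:137341067-137432185) had normalized counts of 555.8 and 411.7 in WT, 507.6 and 358.2 with ACreb3l2, 774.8 and 522.3 with AXBP1 and 688.3 and 828.8 with both transgenes. Plvap (ENSMUSG00000034845, chr8:71497765-71511752) had 1342 and 1126 in WT, 1557 and 783.7 with ACreb3l2, 1837 and 1474 with AXBP1 and 1497 and 1650 with both transgenes. Emcn had its lowest value in ACreb3l2 replicate 2 and its highest in ACreb3l2/AXBP1 replicate 2, and the ACreb3l2 libraries both lay below both AXBP1 libraries. The FPKM ratio of Emcn to Plvap was 0.499 to 0.653 in the WT and single transgenic libraries, and 0.686 and 0.793 in ACreb3l2/AXBP1. Eng (ENSMUSG00000026814, chr2:32646595-32682669), a coreceptor for BMP and TGF-beta ligands, had 782.8 and 701.4 in WT, 856.3 and 458.6 with ACreb3l2, 919 and 713.7 with AXBP1 and 777.2 and 920.1 with both transgenes. It was the 1 gene of the 10 whose ACreb3l2/AXBP1 libraries overlapped WT. Plvap overlaps Gtpbp3 and Eng overlaps Fpgs, each on the opposite strand, and Eng also overlaps Gm26236, Gm47291 and Mir1954 on its own strand. Counting by strand would not separate those from Eng, and the strand setting of the counting is not given in the sources used here.

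**Figure D2:**
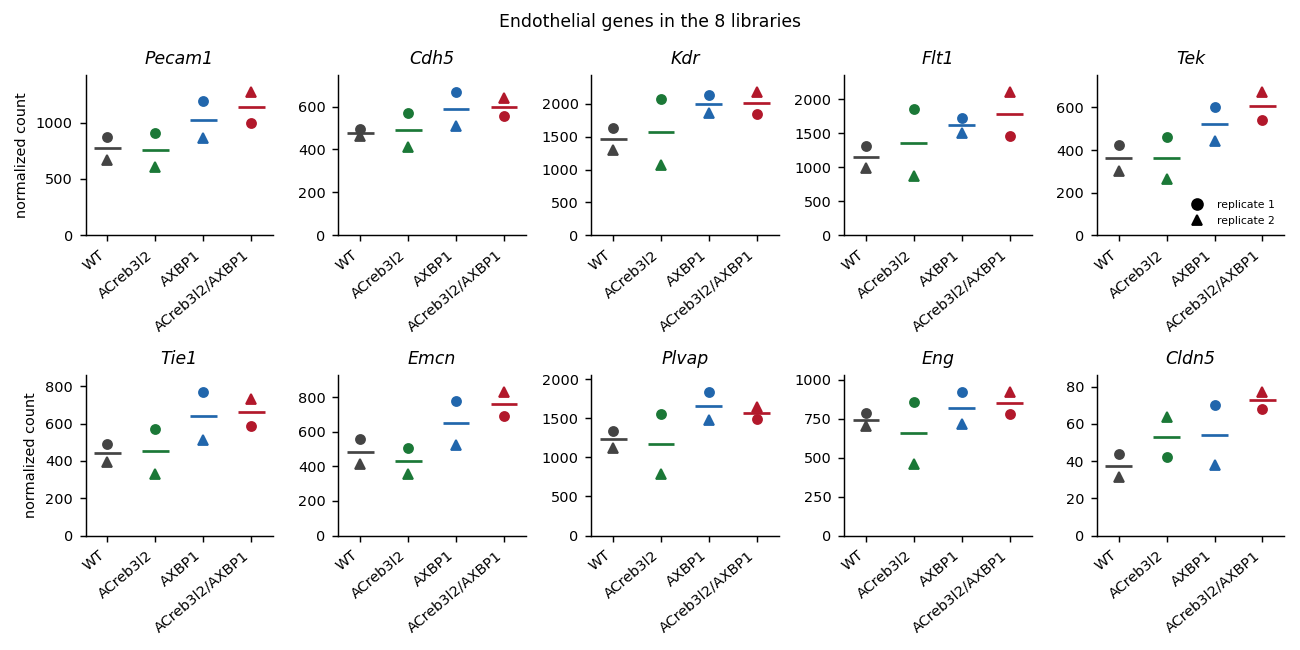
Normalized counts (vertical axis, from 0) of the 10 endothelial genes by group, with a point for each library (circle for replicate 1, triangle for replicate 2) and a line at the mean of the 2 libraries. The 2 points of ACreb3l2 are far apart for most genes, such as Flt1 at 1850 and 872.7, and the ACreb3l2/AXBP1 points lie above the WT points for all genes but Eng.

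Libraries of one group differed in all of these genes at once. In WT 10 of the 10 genes were higher in replicate 1, by a median of 0.35 on the log2 scale, and in AXBP1 all 10 were higher in replicate 1, by a median of 0.42. In ACreb3l2/AXBP1 all 10 were higher in replicate 2, with a median of -0.26 for replicate 1 minus replicate 2. The gap was widest in ACreb3l2, where 9 of the 10 genes were higher in replicate 1 by a median of 0.80, a 1.74-fold difference, and Flt1 by 1.08. Of all tested genes, 3.13% differed between the ACreb3l2 libraries by more than the members' median. The same share was 7.88% in AXBP1, 18.6% in WT and 27.6% in ACreb3l2/AXBP1, so gaps as large as the members' were common in the last of these groups. The gap between pools of ACreb3l2 was wider than the median difference between any transgenic group and WT.

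Against WT, ACreb3l2 left these genes without a common direction. None of the 10 passed edgeR's adjusted threshold of 0.05, none had an unadjusted p below 0.05, and DESeq2 also called 0. Of all tested genes edgeR called 3.04% and DESeq2 4.85%, and 16.8% had an unadjusted p below 0.05 in edgeR. Of the 10, 6 were higher and 4 lower, with log2 changes from -0.17 for Eng to 0.47 for Cldn5 and a median of 0.02, beside 0.01 over all genes. Kdr was 1.08-fold WT (95% interval 0.642 to 1.80, edgeR adjusted p = 0.902) and Plvap was 0.952-fold (0.566 to 1.60, adjusted p = 0.936). Intervals of this width do not show that the levels were alike. No gene of the 10 had both ACreb3l2 libraries above both WT libraries, against 22.3% of all genes. The median rested on which ACreb3l2 library was kept: it was -0.43 without replicate 1 and 0.30 without replicate 2.

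In AXBP1 all 10 genes had positive log2 changes, from 0.14 for Eng to 0.54 for Tie1, with a median of 0.44 beside 0.00136 over all genes. None passed the adjusted threshold and none had an unadjusted p below 0.05, while edgeR called 0% of all genes in this comparison and 9.97% had an unadjusted p below 0.05. DESeq2 called 0 of the 10 and 0.507% of all genes, with an unadjusted p below 0.05 for 3 of the 10 and for 8.08% of all genes. Tie1 was 1.45-fold WT (95% interval 0.896 to 2.36, edgeR adjusted p = 0.561), Tek 1.43-fold (0.886 to 2.31, adjusted p = 0.570) and Kdr 1.37-fold (0.817 to 2.28, adjusted p = 0.617). For 6 genes, Cdh5, Kdr, Flt1, Tek, Tie1 and Plvap, both AXBP1 libraries lay above both WT libraries, a pattern held by 22.3% of all genes. Here and below, counts of the 10 genes are not counts of independent results, since the genes moved together between libraries. Without the filter on low counts edgeR called 5 of the 10 (Kdr, Flt1, Tek, Tie1 and Plvap, adjusted p from 0.00271 to 0.026) and 2.13% of 29547 genes. That fit gave no weight to the spread of the single gene: its prior degrees of freedom were infinite for all 10 genes, so each took the spread common to genes of its abundance. Their quasi-dispersion (spread between libraries of a group, relative to the model) was then 0.702 to 0.718, against 0.965 to 8.01 with the filter. Its calls therefore do not take account of the gaps between libraries of one group described above. Without AXBP1 replicate 1 the median was 0.19.

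The 10 genes were again all positive in ACreb3l2/AXBP1, with a median log2 change of 0.57 beside 0.01 over all genes. This group shares its WT libraries with the other comparisons, so its values are not independent of theirs. Cldn5 had the largest difference, at 1.92-fold WT (95% interval 1.13 to 3.25, unadjusted p = 0.02, edgeR adjusted p = 0.102). Tek was 1.67-fold (1.04 to 2.68, adjusted p = 0.147), Emcn 1.57-fold (1.06 to 2.32, adjusted p = 0.129), Flt1 1.55-fold (0.799 to 3.02, adjusted p = 0.324) and Pecam1 1.47-fold (0.982 to 2.2, adjusted p = 0.184). Eng was the least different, at 1.14-fold (0.730 to 1.79, adjusted p = 0.674). None passed the adjusted threshold, although edgeR called 10.1% of all genes here, and 3 of the 10 (Tek, Emcn and Cldn5) had an unadjusted p below 0.05 beside 29.7% of all genes. Both libraries lay above both WT libraries for 9 genes, all but Eng, against 29.6% of all genes. As in AXBP1, these genes moved together and are not independent.

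The outcome in ACreb3l2/AXBP1 differed between tests. DESeq2 called Tek (adjusted p = 0.0252) and Emcn (adjusted p = 0.0273), along with 13.3% of all genes. The unfiltered fit, which set aside the spread of each gene, called 8 of the 10, all but Cdh5 and Eng, and 10.9% of 29547 genes. The fitted changes themselves hardly moved: the median was 0.56 in both cases. Leaving out single libraries moved it between 0.35, without ACreb3l2/AXBP1 replicate 2, and 0.75, without WT replicate 1, and in none of these 8 fits was a member called.

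**Figure D3:**
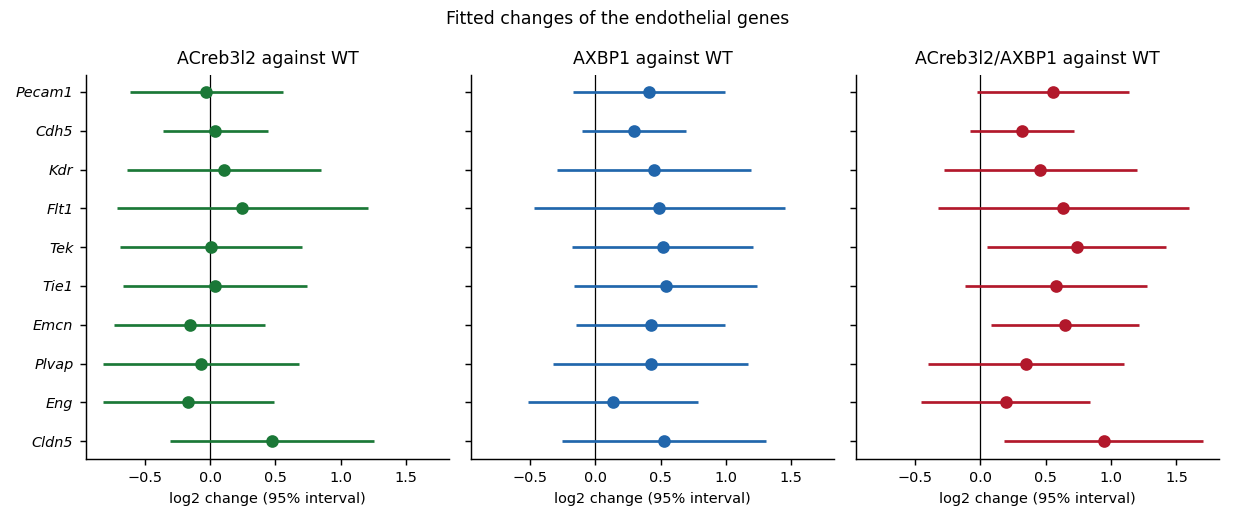
Fitted log2 changes of the 10 endothelial genes against WT (points) with 95% intervals (bars), 1 panel per transgenic group. Points scatter around 0 in ACreb3l2 and lie right of 0 in the other panels, and the interval excludes 0 only for Tek, Emcn and Cldn5 in ACreb3l2/AXBP1.

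Comparisons between the transgenic groups used the same libraries as those against WT, so their values are not independent of those above. ACreb3l2 was below AXBP1 for all 10 genes, with a median log2 difference of -0.39 (-0.87 without ACreb3l2 replicate 1 and -0.12 without ACreb3l2 replicate 2). Emcn alone had both ACreb3l2 libraries below both AXBP1 libraries, a pattern held by 22.4% of all genes, and an unadjusted p of 0.0484 (edgeR adjusted p = 0.522), and 9.49% of all genes had one below 0.05. No member was called there, beside 0.719% of all genes, and without the filter on low counts 5 were, beside 2.47%, in the fit that set aside the spread of each gene. ACreb3l2/AXBP1 exceeded ACreb3l2 for all 10 genes, with a median of 0.45, and edgeR called 0% of all genes. Pecam1, Tek and Emcn had unadjusted p-values below 0.05, as did 7.14% of all genes, and Emcn differed most, 1.75-fold (95% interval 1.17 to 2.59, edgeR adjusted p = 0.688). For 5 genes (Pecam1, Tek, Tie1, Emcn and Cldn5) both ACreb3l2/AXBP1 libraries lay above both ACreb3l2 libraries, against 18.3% of all genes. In that same fit without the filter 5 were called (Pecam1, Tek, Tie1, Emcn and Plvap), beside 1.74% of all genes. This median was 0.14 without ACreb3l2 replicate 2 and 0.96 without ACreb3l2 replicate 1.

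No difference between ACreb3l2/AXBP1 and AXBP1 passed the test. The 10 genes differed by a median of 0.10, 9 of them positive, from -0.07 for Plvap to 0.42 for Cldn5, and edgeR called none of them and 0.623% of all genes. Intervals were wide, such as 0.573 to 2.14-fold for Flt1 and 0.801 to 2.22-fold for Cldn5, and do not show that the levels were alike. That median was -0.08 without ACreb3l2/AXBP1 replicate 2 or without AXBP1 replicate 2, 0.25 without ACreb3l2/AXBP1 replicate 1 and 0.31 without AXBP1 replicate 1. The interaction, which subtracts both single transgenic changes from the change with both transgenes, was positive for 5 genes and negative for 5. With limma on log2(FPKM + 0.1) it was positive for all 10, with a median of 0.20 beside 0.10 over all genes, and no member was called. Leaving out single libraries gave from 2 to 10 positive genes. Its median was near 0 (-0.000906; -0.19 without ACreb3l2 replicate 2 and 0.53 without ACreb3l2 replicate 1), the largest was 0.38 for Emcn (95% interval -0.43 to 1.19), and edgeR called 0% of all genes.

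Genes of the pathways around these receptors were read next, from lists of their ligands, partners and targets. Of 8 VEGF ligands and coreceptors, 0 were called in any comparison with WT by edgeR or DESeq2, and 1 had an unadjusted p below 0.05, in ACreb3l2 under edgeR. Vegfa, the ligand that keeps capillaries fenestrated, had from 2073 to 2478 normalized counts over the 8 libraries, a narrower range than that of its receptors. The coreceptor Nrp1, which endothelium itself makes, had from 1500 to 2578, with its lowest value in ACreb3l2 replicate 2. Of 13 tested BMP and TGF-beta partners of endoglin, 0 were called against WT by edgeR or DESeq2, and up to 3 in a comparison had an unadjusted p below 0.05. Of 9 Notch genes edgeR called 0 and DESeq2 called 1, in ACreb3l2/AXBP1, and 1 in each comparison had an unadjusted p below 0.05. Over all genes, edgeR called 3.04%, 0% and 10.1% in ACreb3l2, AXBP1 and ACreb3l2/AXBP1 against WT and 16.8%, 9.97% and 29.7% had an unadjusted p below 0.05, and DESeq2 called 13.3% in ACreb3l2/AXBP1.

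In the angiopoietin list 5 of 6 genes were tested, and Angpt2 rose. Angpt2, a ligand of Tek that can block or activate it and is itself made by endothelium, had normalized counts of 271.6 and 320.2 in WT, 621.8 and 1022 with ACreb3l2, 430.4 and 425.5 with AXBP1 and 858.2 and 693.2 with both transgenes. All 6 transgenic libraries lay above both WT libraries, with AXBP1 between WT and the other groups. The log2 change was 1.47 ± 0.23 (SE, edgeR adjusted p = 0.0138) in ACreb3l2 and 1.39 ± 0.23 (adjusted p = 0.0107) in ACreb3l2/AXBP1, while AXBP1 had 0.53 ± 0.23 (adjusted p = 0.50). The difference between ACreb3l2 and AXBP1 was 0.94 ± 0.22 (adjusted p = 0.146). Its pattern over libraries was unlike that of the 10 genes, with r = 0.021 to their mean. The call in ACreb3l2 had an adjusted p of 0.0684 without WT replicate 1, 0.0978 without WT replicate 2 and 0.0503 when the 2 groups were fitted alone. In ACreb3l2/AXBP1 the adjusted p was 0.071 without WT replicate 2. Angpt2 (chr8:18690263-18741562) lies within Mcph1 on the opposite strand, so its count is uncertain if strand was not used. Mcph1 itself was level, with 385.9 to 445.4 normalized counts in the 8 libraries. Angpt1, the activating ligand, had 249.4 to 351.9 normalized counts and was not called.

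Among 14 tested endothelial transcription factors, 2 were called, both in ACreb3l2/AXBP1 against WT, where edgeR called 10.1% of all genes. The ETS factors Ets1 (log2 change 0.37 ± 0.10, edgeR adjusted p = 0.0401) and Fli1 (0.50 ± 0.14, adjusted p = 0.0495) rose, and the list's median was 0.32. Each overlaps antisense or internal transcripts. Leaving out 1 library at a time, the adjusted p of Fli1 was above 0.05 in 8 of 8 fits and that of Ets1 in 7 of 8, reaching 0.205 without WT replicate 2 and 0.21 without ACreb3l2/AXBP1 replicate 2. DESeq2 called 1 gene of this list in the same comparison, and 13.3% of all genes.

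A list of 35 other endothelial genes, which shares Sox18 with the list of factors, had median log2 changes of -0.01 (ACreb3l2), 0.29 (AXBP1) and 0.42 (both transgenes). Of the 35, 30 were positive in AXBP1 and 28 in ACreb3l2/AXBP1. The 2 edgeR calls fell in ACreb3l2/AXBP1 against WT and had opposite directions, and DESeq2 called 5 genes there. Over all genes edgeR called 10.1% and DESeq2 13.3% in that comparison, so neither count stands out. Aplnr, the apelin receptor of sprouting and venous endothelium, rose from 84.39 and 72.97 normalized counts in WT to 162.9 and 173.7, a log2 change of 1.09 ± 0.20 (edgeR adjusted p = 0.0106). Cav1, the coat protein of caveolae, fell by 0.61 ± 0.16 on the log2 scale (adjusted p = 0.0463), from 822.6 and 713.4 to 480.9 and 528.3. Gm15581 overlaps Cav1 on the opposite strand, so this count is uncertain if strand was not used. Without WT replicate 2 the adjusted p was 0.073 for Aplnr and 0.104 for Cav1, and without ACreb3l2/AXBP1 replicate 2 it was 0.0934 and 0.193. Cav1 was above 0.05 in 6 of the 8 fits that leave out a library.

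Genes of barrier-forming brain endothelium were mixed. Of 11 tested, 6 were positive in AXBP1 (median log2 change 0.06) and 4 in ACreb3l2/AXBP1 (median -0.20), and no test compared them with the 10 genes. Over the 8 libraries Abcg2, an efflux transporter, followed the mean of the 10 genes with r = 0.897 and Slco1a4, an organic anion transporter, with r = 0.42, while the other 9 lay between -0.463 and 0.0573. DESeq2 called 1, 1 and 2 of the 11 in ACreb3l2, AXBP1 and ACreb3l2/AXBP1 against WT, beside 4.85%, 0.507% and 13.3% of all genes. Slc16a1, a lactate transporter that many cell types also make, fell by 0.70 in ACreb3l2 (edgeR adjusted p = 0.00255) and by 0.96 in ACreb3l2/AXBP1 (adjusted p = 0.000592), from 3366 and 3244 normalized counts in WT to 2110 and 1958, and to 1789 and 1609. In AXBP1 it lay 0.43 below WT without a call (edgeR adjusted p = 0.331), at 2484 and 2421. It was 0.53 lower in ACreb3l2/AXBP1 than in AXBP1 (edgeR adjusted p = 0.0258). Both calls against WT held in each alternative fit that kept all libraries. Leaving out a library gave log2 changes of -0.75 to -0.64 in ACreb3l2 and -1.04 to -0.89 in ACreb3l2/AXBP1. Of the lymphatic markers Lyve1 had 5 to 14 counts and Ccl21a had 0 counts in every library, and the 3 that were tested were not called by edgeR or DESeq2, with at most 1 unadjusted p below 0.05 in a comparison.

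How alike the genes moved over the 8 libraries was described by Pearson's r between each gene and the mean of the 10, on log2 CPM. These points share libraries and depth, and no test is attached. Each member against the mean of the other 9 gave 0.862 (Eng) to 0.993 (Pecam1), apart from 0.417 for Cldn5. The value for Cldn5 rested on only 29 to 87 counts per library. Over the 15570 other genes the median r was 0.0013, and 81 (0.52%) lay above 0.9. The 10 most alike were Crispld2 (0.987), Igfbp3, Rasgrp3, Tmem88, Cpxm1, Tmem204, Pear1, Nos3, Mmp2 and Sema3g (0.958). Nos3, endothelial nitric oxide synthase, and Tmem204 were on the list of other endothelial genes. That list had a median r of 0.89, with 14 of 35 above 0.9.

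**Figure D4:**
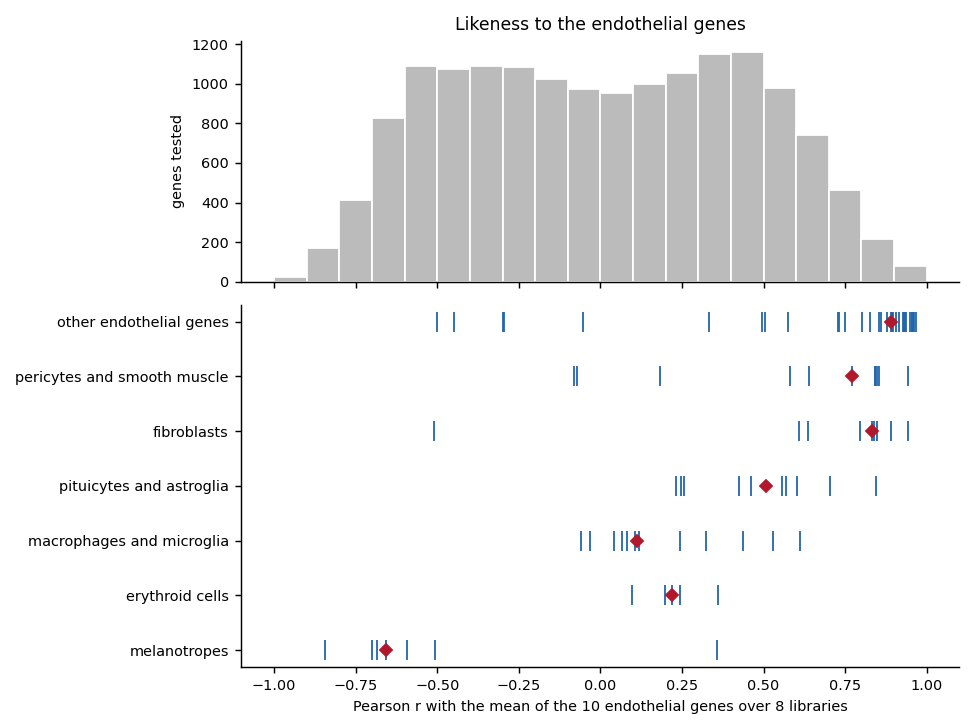
Upper panel, number of tested genes (bars) by Pearson r with the mean of the 10 endothelial genes over 8 libraries. Lower panel, the same r for each gene of 7 lists (ticks) with the list's median (diamond), which is 0.89 for other endothelial genes, 0.832 for fibroblasts and -0.658 for melanotropes.

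Other cells of the lobe moved with these genes to different degrees. Fibroblast markers had a median r of 0.832 over 9 genes, and those of pericytes and smooth muscle, the cells that wrap vessels, 0.772 over 11 genes. Pituicyte and astroglial genes had 0.508, macrophage and microglial genes 0.112, erythroid genes 0.22, anterior lobe genes -0.136 and melanotrope genes -0.658. In ACreb3l2/AXBP1 against WT, 10 of 10 pituicyte genes (median log2 change 0.36), 9 of 11 pericyte genes (0.21) and 7 of 9 fibroblast genes were positive. So were 5 of 12 macrophage, 3 of 7 anterior lobe, 0 of 5 erythroid and 1 of 7 melanotrope genes (median -0.66). Pituicyte genes were also positive for 8 of 10 in AXBP1 (0.19) and 10 of 10 in ACreb3l2 (0.36). In ACreb3l2 replicate 2, where the 10 genes were lowest (-0.32 on the log2 scale relative to the WT mean), the pericyte list was at -0.43 and the fibroblast list at -0.15, while melanotrope genes were at -0.10. In ACreb3l2/AXBP1 replicate 2, where the 10 were highest (0.68), melanotrope genes were lowest (-0.72), and Pomc took 6.91% of counts against 10.5% and 14.6% in WT. Summed CPM of the melanotrope list ran from 72520 to 152200, those of the pericyte list from 146 to 358, and those of the fibroblast list from 702 to 1189. Single calls by edgeR in these lists were for Fn1, a matrix protein that fell by 0.82 (edgeR adjusted p = 0.0189), Aqp4, a glial water channel that rose by 0.51 (adjusted p = 0.0464), and Tbx19, the melanotrope factor Tpit, which fell by 0.88 (adjusted p = 0.0245), all in ACreb3l2/AXBP1 against WT. Fn1 went against its list, in which 7 of 9 genes were positive there with a median log2 change of 0.25, and its r with the 10 genes was -0.509. DESeq2 called 3 of 7 melanotrope, 2 of 9 fibroblast and 2 of 10 pituicyte genes in that comparison, beside 13.3% of all genes. It also called 1 of the 7 melanotrope genes in AXBP1, beside 0.507% of all genes, and 1 of the 10 pituicyte genes in ACreb3l2, beside 4.85%. Among other losses, Fn1, Aqp4 and Tbx19 each lost the call without WT replicate 2 (adjusted p from 0.0965 to 0.242) and without ACreb3l2/AXBP1 replicate 2 (0.0837 to 0.336). The part of melanotrope RNA, or of the share of vessels and connective tissue in a dissected lobe, in the differences above was not tested.

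**Figure D5:**
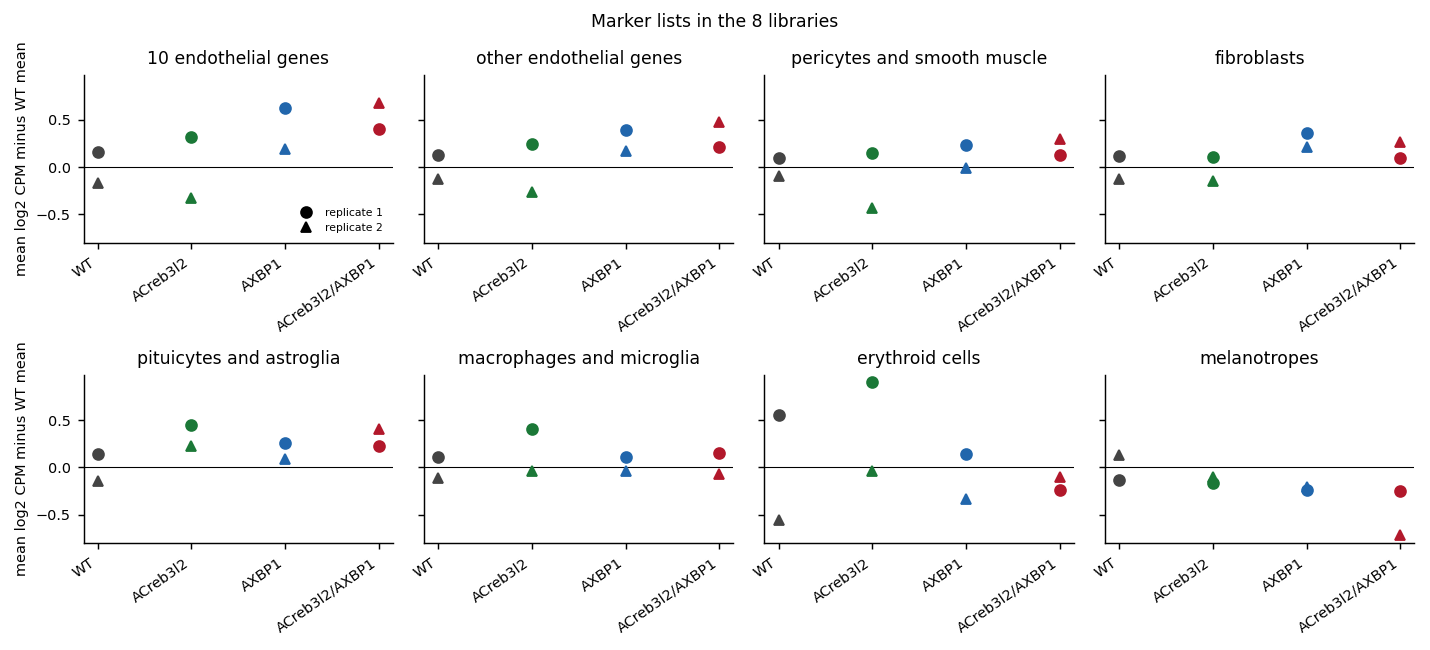
Mean log2 CPM of 8 gene lists relative to the WT mean (vertical axis), with a point for each library (circle for replicate 1, triangle for replicate 2). The 10 endothelial genes run from -0.32 to 0.68. The lists of other endothelial genes, pericytes, fibroblasts, pituicytes and erythroid cells have the same order of replicates within each group. Macrophage and microglial genes differ in that order in ACreb3l2/AXBP1, and melanotrope genes reach -0.72 where the endothelial genes are highest.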

How the data were processed

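RNA-seq was read in 8 libraries of pooled neuro-intermediate lobes, with groups taken from the labels (ribosomal depletion per the labels, a strand-preserving mRNA kit per the methods text). Per the methods, the authors trimmed reads with Trimmomatic, aligned them to mm10 with Tophat and deposited raw counts per Ensembl gene from HTSeq-count. The deposited FPKM values are the authors' own estimates, and annotation release and strand setting are not given in the sources used here. Genes were named from the FPKM table and placed with GENCODE M21, against which 48082 loci were compared.

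Genes with a mean median-ratio normalized count above 20 (15580 of 48526) were fitted in edgeR 4.0.16 (R 4.3.3) with TMM, a mean per group and the robust quasi-likelihood test, in 7 contrasts. Adjusted p is Benjamini-Hochberg within a contrast, and a call is an adjusted p under 0.05. Normalized counts are TMM-scaled to the mean depth. Log2 CPM used a prior count of 2. DESeq2 1.42.0, limma 3.58.1 on log2(FPKM + 0.1) and the other alternatives are given in the closing section. The script was tested on simulated data. Fitted intervals are 95% intervals from the moderated degrees of freedom, and depth limits Cldn5 most.

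Members and lists were chosen with earlier results of these data known. Named were all 10 members, every list gene called against WT (at most 5 for each list and contrast), a fixed set of ligands, receptors and barrier genes, and the 10 genes most like the members. Mcph1 was named after its values were seen, because Angpt2 lies within it. Angpt4, Gdf2, Bmp10, Foxf1, Slco1c1, Lef1, Lyve1, Ccl21a, Higd1b and Neurod1 fell under the count limit.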

Additional observations from a re-analysis of the deposited data

How the results depend on the processing

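The number of endothelial genes called was 0 of 10 in each of the 7 comparisons and stayed 0 in every fit that left out a library, with median-ratio size factors, with library size alone, with limma on log2(FPKM + 0.1), with the replicate block and, in the 6 comparisons of 2 groups, with only the groups compared (the interaction cannot be fitted that way). It changed without the filter on low counts, to 5 in AXBP1 against WT, 8 in ACreb3l2/AXBP1 against WT, 5 in ACreb3l2 against AXBP1 and 5 in ACreb3l2/AXBP1 against ACreb3l2, and with DESeq2, to 2 in ACreb3l2/AXBP1 against WT, where the cause was not tested. The fit without the filter had infinite prior degrees of freedom for all 10 members, whose median quasi-dispersion was 0.716 against 3.15 with the filter, so its calls, those over all genes included, leave out the spread of the single gene. Over all genes, calls against WT (ACreb3l2, AXBP1, ACreb3l2/AXBP1) were 473, 0 and 1566, and 1455, 628 and 3209 without the filter, 755, 79 and 2074 with DESeq2, 304, 0 and 1650 with library size alone, 199, 14 and 790 with limma on FPKM, 263, 2 and 658 with only the groups compared, and 152 to 623, 0 to 9 and 215 to 2050 when a library was left out. The other 4 comparisons (ACreb3l2 against AXBP1, ACreb3l2/AXBP1 against ACreb3l2 and against AXBP1, and the interaction) gave 112, 0, 97 and 0 calls, and 730, 513, 755 and 126 without the filter, 260, 41, 287 and 4 with DESeq2, and 24, 4, 28 and 3 with limma. Library size alone moved the median of all genes to 0.17 in ACreb3l2/AXBP1 against WT, and the members' median relative to it was 0.55, beside 0.56 in the model used. FPKM moved the median of all genes to -0.15 in AXBP1 against WT, with the members 0.45 above it.

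Signs turned for some members, none of them called. For the interaction, near 0 in the model used, the number of positive members ran from 5 to 10 under alternatives that keep all libraries. Against WT in ACreb3l2 these were Pecam1 with library size alone (0.038) and FPKM (0.079), and Tek with DESeq2 (-5.3e-05), FPKM (-0.046), only the groups compared (-0.00047) and the replicate block (-0.012). In AXBP1 it was Eng with FPKM (-0.013). Leaving out single libraries gave, on the log2 scale, ranges that crossed 0 for ACreb3l2 against WT, which were Pecam1 -0.35 to 0.23, Emcn -0.43 to 0.079, Plvap -0.65 to 0.34, Cdh5 -0.22 to 0.26, Kdr -0.45 to 0.50, Tek -0.46 to 0.35, Tie1 -0.42 to 0.38, Flt1 -0.40 to 0.69 and Eng -0.69 to 0.21. The same held for Eng -0.056 to 0.31 in AXBP1 against WT, and for Kdr -0.033 to 0.92, Flt1 -0.044 to 1.04 and Eng -0.0095 to 0.89 in ACreb3l2/AXBP1 against ACreb3l2. In each fit without a library the lone sample of its group is assumed to vary like the other groups.

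Between transgenic groups, ACreb3l2 minus AXBP1 had 0 positive members in the model used, 1 with FPKM and 0 to 3 when a library was left out, and ACreb3l2/AXBP1 minus AXBP1 had 9, then 10 with FPKM and with library size alone, and 3 to 10 when a library was left out.

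Replicate numbers did not pair the libraries: deviations from group means correlated at -0.197 to 0.0887 between same-numbered libraries. With the replicate block 0 members were called, and all genes gave 321, 3 and 1113 calls against WT. The list genes called against WT were re-fitted under the same alternatives after seeing the data. With all libraries kept, Slc16a1 and Tbx19 kept their calls, and Fli1 lost it most often (kept with library size alone, adjusted p = 0.0324). Cav1 lost it with library size alone (0.114), limma (0.105) and the replicate block (0.0635), and Aqp4 with limma (0.199), only the groups compared (0.113) and the block (0.0688). Aplnr (0.0673) and Fn1 (0.0705) lost it with limma, and Ets1 with limma (0.275) and only the groups compared (0.0953).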
